A study of Mus musculus with 8 samples.

Results

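The integrated stress response is described here through 10 genes, Gdf15, Slc7a11, Atf3, Atf4, Atf5, Ddit3, Trib3, Chac1, Asns and Sesn2, in polyadenylated RNA of mouse uterine stromal cells. All 10 were found among the 23420 gene symbols of the deposited count tables. They were chosen by name as genes of this response, with their levels in the comparison of the genotypes already known, so that comparison is given for them as a description. Where a fit over all genes called a member, the call is listed beside the share of all genes called and supports nothing. The samples were 8 libraries of uterine stromal cells at day 3, of which 4 carry the label Erbb3f/f and 4 the label Erbb3d/d. By convention f stands for a floxed allele and d for a deleted one, but the labels give no Cre line, no animal age, no event from which day 3 is counted and no statement on whether a library is 1 animal or a pool. Where nothing says that the libraries came from separate animals, any p-value measures only the spread between these libraries.

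In the integrated stress response, kinases that sense amino acid shortage, misfolded protein in the endoplasmic reticulum (ER), viral RNA or haem shortage phosphorylate the initiation factor eIF2alpha. General translation then slows, while the mRNA of the transcription factor ATF4 is translated more, so that the response can be strong with little change in Atf4 mRNA. ATF4 works with ATF3, ATF5 and CHOP (the product of Ddit3) and with C/EBP proteins on a composite C/EBP-ATF element in its target genes. Those targets include amino acid transporters, the enzymes that make amino acids, tRNA synthetases and secreted signals such as GDF15. Slc7a11 encodes the light chain of the cystine-glutamate exchanger, which supplies cystine for glutathione.

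Reads in genes numbered 8578575 to 12854367 per library, with no detected difference in depth between the genotypes (two-sided exact permutation test, p = 0.771). A normalised read count is given as CPM, reads per 1000000 reads in genes once library sizes had been adjusted with TMM factors. Erbb3, the gene named in the genotype, had 7.40, 10.6, 8.25 and 12.3 CPM in Erbb3f/f replicates 1 to 4 and 7.37, 14.3, 17.6 and 16.2 CPM in Erbb3d/d replicates 1 to 4. Its counts thus did not fall in Erbb3d/d, and since they cover the gene as a whole they cannot show whether an exon is missing. Directions here rest on the genotype labels, and Erbb3d/d means the libraries labelled so. Stromal genes were abundant in every library (summed level of 14 stromal markers 12024 to 17579 CPM), and 9 of the 14 had a lower mean in Erbb3d/d. Over all 14598 genes tested, edgeR's quasi-likelihood test called 0% (adjusted p under 0.05). Without adjustment 1695 genes (11.6%) had a p under 0.05, and DESeq2 called 262 of the genes to which it gave an adjusted p.

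The composite element has a short core, written TGATGNAA, that can be read in the promoters of the members. RefSeq promoters (GRCm38.p6, 250 bases before to 50 after each start site) were matched for all 10 members, with 12 start sites. The core was present on either strand in 5 of the 10 members, Slc7a11, Atf3, Trib3, Chac1 and Asns, against 4.51% of the 27025 genes in the table (3.97% of all 32851 promoters). The windows below show where these letters lie before the start site in 3 of those members, 5′ to 3′ on the gene's strand, with each core or its reverse complement TTNCATCA in capitals.

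Slc7a11, chr3:50443633-50443699, minus strand: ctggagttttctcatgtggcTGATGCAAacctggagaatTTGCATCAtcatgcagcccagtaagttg

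Atf3, chr1:191183416-191183463, minus strand: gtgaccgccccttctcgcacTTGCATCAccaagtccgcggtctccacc

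Chac1, chr2:119351029-119351076, plus strand: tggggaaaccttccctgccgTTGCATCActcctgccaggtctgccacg

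The Slc7a11 window holds 2 cores in opposite orientation, which begin 66 and 47 bases before the start. The core of Atf3 begins 110 bases before its start, and that of Chac1 193 bases before. The Slc7a11 and Chac1 windows lie outside the span that GENCODE vM21 gives the gene itself, and the Atf3 window lies inside the span of Atf3. Overlap with other genes was not checked for the windows. The core of Asns, TGATGAAA, begins 23 bases before the RefSeq start, inside the span that GENCODE gives this gene. In Trib3 the only match, TTACATCA, lies after the start, from base 15 to base 22. The same windows were searched for 3 other motifs on both strands, none of which overlapped a C/EBP-ATF core in these promoters. The cyclic AMP element TGACGTCA was found in none of the members and in 1.79% of all promoters. The AP-1 motif TGANTCA was found in Ddit3 and in 7.81% of all promoters. The antioxidant element core TGACNNNGC, which NRF2 binds, was found in Asns and Sesn2 and in 12.4% of all promoters. These matches are letters in a window and say nothing of binding.

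The members differed widely in level. Levels of different genes are compared as CPM per kilobase of merged exon (GENCODE vM21, GRCm38). In Erbb3f/f, 3 transcription factors led, with Atf5 at 91.2 ± 18.2, Atf4 at 86.4 ± 6.29 and Atf3 at 69.8 ± 29.1 CPM per kilobase (SD, n = 4 each), and these 3 overlapped. Ddit3 followed at 14.7 ± 3.09 CPM per kilobase, clear of Atf3 and of the next gene. Asns (8.40 ± 1.90), Sesn2 (6.62 ± 1.48), Slc7a11 (6.08 ± 2.29) and Gdf15 (5.80 ± 2.94 CPM per kilobase) overlapped each other. Chac1 (2.70 ± 1.45) and Trib3 (1.66 ± 0.421 CPM per kilobase) were lowest, and Chac1 overlapped both Trib3 and Gdf15. In Erbb3d/d the order differed, with Atf3 at the top at 130 ± 43.9 CPM per kilobase. There Gdf15 at 21.3 ± 8.75 and Slc7a11 at 14.9 ± 6.26 CPM per kilobase stood beside Ddit3 at 13.3 ± 1.46 (SD, n = 4 each) and above Asns at 5.58 ± 1.19. All 10 members passed the filter on low counts, with at least 21 reads in every library.

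Seen together, the 10 genes did not follow 1 direction. The mean was higher in Erbb3d/d for 6 and lower for 4, against 48% of all tested genes with a log2 fold change above 0. The fitted log2 fold changes (Erbb3d/d over Erbb3f/f) ran from 1.88 for Gdf15 to -0.59 for Asns, with a median of 0.26 beside -0.01 over all genes. edgeR called 0 of the 10 members over all genes tested. DESeq2 called Gdf15 and Slc7a11, in a fit that called 1.8% of all genes. With the replicate number as a block, which no label gives as a pairing, edgeR called the same 2 and 52 of 14598 genes in all. edgeR without Erbb3d/d replicate 2 called Gdf15, where 1.75% of all genes were called. With any other single library left out, edgeR called 0 genes. Because the members were chosen on this contrast, nothing is read from these counts.

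**Figure D1:**
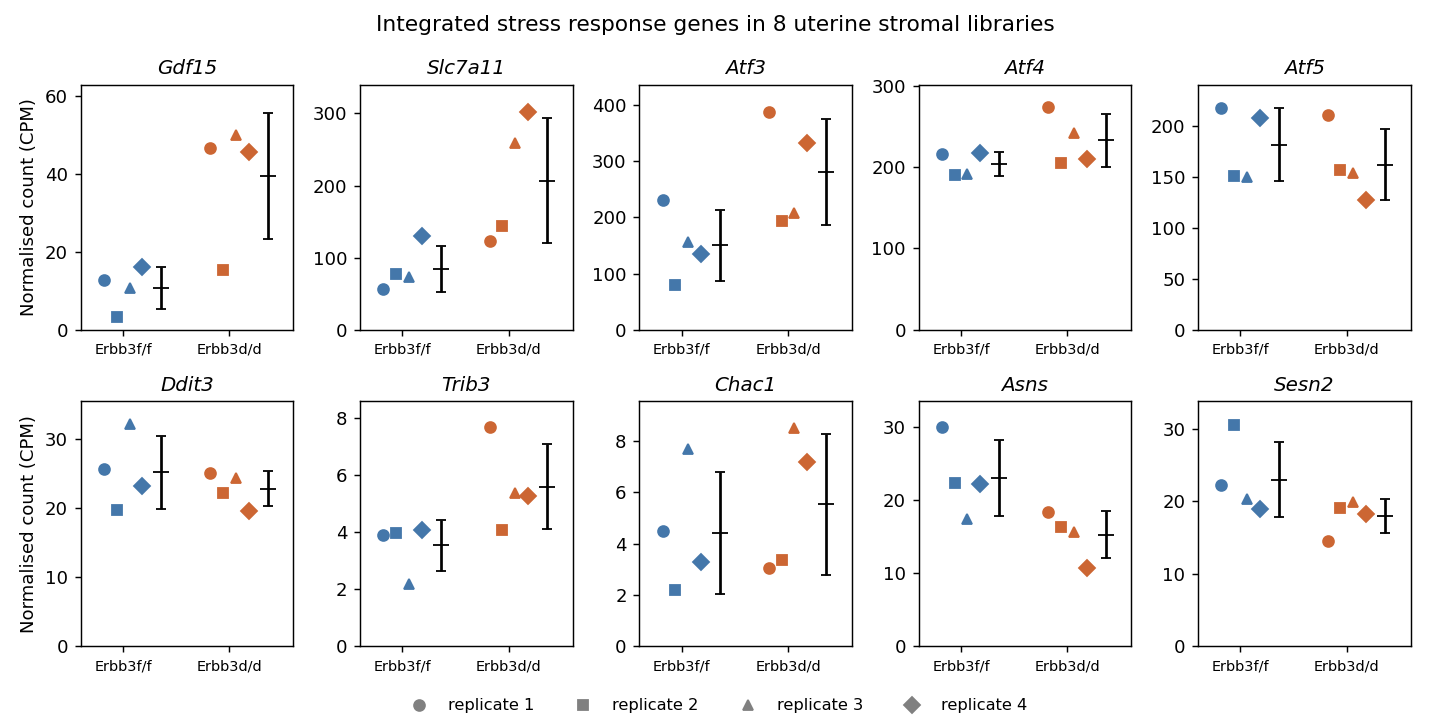
Normalised read count (CPM, linear axis from 0) of each of the 10 genes in the 4 Erbb3f/f and 4 Erbb3d/d libraries; the marker shape is the replicate number and the black bar is the mean ± SD. Gdf15, Slc7a11 and Atf3 have higher means in Erbb3d/d, and Asns and Sesn2 have lower means. The genotypes overlap for every gene but Trib3, whose closest libraries are nearly equal. For Atf4, 2 Erbb3d/d libraries lie above every Erbb3f/f library.

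The transcription factors were examined before their targets. Atf4, the central activator of the response, had 216, 190, 192 and 217 CPM in Erbb3f/f replicates 1 to 4 and 274, 204, 242 and 210 CPM in Erbb3d/d replicates 1 to 4. Erbb3d/d replicates 1 and 3 lay above every Erbb3f/f library and the other 2 lay among them. The mean was 204 ± 14.8 CPM in Erbb3f/f against 233 ± 32.2 CPM in the Erbb3d/d libraries (n = 4 each, SD), a log2 fold change of 0.19 (SE 0.11). Its spread within genotypes was the smallest of the 10 members (SD 0.16 on the log2 scale), and mRNA counts do not show how much ATF4 protein is made.

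Atf5 encodes a related bZIP factor whose mRNA is also translated under stress. It had 218, 151, 150 and 208 CPM in Erbb3f/f, against 211, 157, 154 and 127 CPM in Erbb3d/d. Both genotypes covered about the same range, and only Erbb3d/d replicate 4 lay below every Erbb3f/f library (log2 fold change -0.16, SE 0.17). Ddit3 encodes CHOP, the factor linked to cell death in prolonged ER stress. It had 25.7, 19.7, 32.2 and 23.2 CPM in Erbb3f/f, against 25.2, 22.3, 24.3 and 19.6 CPM in Erbb3d/d, with groups that overlapped almost fully (log2 fold change -0.14, SE 0.17). Without Erbb3f/f replicate 3 its log2 fold change was -0.002. Atf5 and Ddit3 each share a short stretch of exon with genes on the other strand (Atf5 82 bp with Nup62 and with Il4i1, Ddit3 68 bp with Mars and 13 bp with Gm4189), and the libraries do not keep strand, so reads there are uncertain.

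Atf3 encodes a repressor and activator that is induced by ATF4 and also, within minutes, by growth factors and by tissue handling. It had 231, 79.7, 156 and 134 CPM in Erbb3f/f, against 388, 194, 208 and 332 CPM in Erbb3d/d. Erbb3d/d replicates 1 and 4 exceeded every Erbb3f/f library, while replicates 2 and 3 lay below Erbb3f/f replicate 1. The log2 fold change was 0.90 (SE 0.33), a 1.86-fold higher level. The sum of a list of immediate early and heat shock genes moved with Atf3 by library. The summed level of 12 such genes was 8316, 4506, 7624 and 6730 CPM in Erbb3f/f, against 11987, 6272, 7351 and 8307 CPM in Erbb3d/d, with the highest and the lowest library the same as for Atf3. Of the 12 genes, 9 had a higher mean in Erbb3d/d and none was at 0 in any library. The 3 with a lower mean were heat shock genes, Hspa1a, Hspa1b and Hsph1 (log2 fold changes -0.33, -0.31 and -0.36). The other heat shock gene, Dnajb1, had 0.08. Fos and Jun, 2 immediate early genes, were the most abundant of the 12, at 1289 and 1387 CPM in Erbb3f/f. No difference of the sum between genotypes was detected (two-sided exact permutation test, p = 0.4, adjusted p = 0.777 over 8 such tests), and the part of these genes in the Atf3 difference was not tested.

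Trib3 encodes a pseudokinase that ATF4 and CHOP induce and that restrains them. It had the lowest mean per kilobase in both genotypes, with 28 to 40 reads in Erbb3f/f and 35 to 78 in Erbb3d/d. Its level was 3.90, 3.98, 2.20 and 4.07 CPM in Erbb3f/f, against 7.67, 4.08, 5.36 and 5.26 CPM in Erbb3d/d. It was the only member whose genotypes did not overlap, although the closest libraries, at 4.07 and 4.08 CPM, were nearly equal. No overlap with higher values in Erbb3d/d was found for 2.56% of all tested genes, and no overlap with lower values for 2.48%. The log2 fold change of Trib3 was 0.67 (SE 0.30). Erbb3d/d replicate 1, the highest for Trib3, was also the highest for smooth muscle markers, for the immediate early and heat shock sum, and for Atf3 and Atf4. The part of any of these in the Trib3 difference was not tested.

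Among the effectors, Asns encodes asparagine synthetase, a standard target of ATF4 in amino acid shortage. It had 30.0, 22.3, 17.4 and 22.2 CPM in Erbb3f/f, against 18.4, 16.3, 15.7 and 10.7 CPM in Erbb3d/d. Erbb3d/d replicates 2, 3 and 4 lay below every Erbb3f/f library, a pattern with at least 3 libraries below that 12.4% of all tested genes shared. The mean was 23.0 ± 5.20 CPM in Erbb3f/f against 15.3 ± 3.26 CPM in the Erbb3d/d libraries (n = 4 each, SD), a log2 fold change of -0.59 (SE 0.21). The direction of Asns was thus opposite to that of Gdf15 and Slc7a11.

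Sesn2 encodes sestrin 2, an inhibitor of mTORC1 that ATF4, NRF2 and p53 can induce. It had 22.3, 30.5, 20.3 and 19.0 CPM in Erbb3f/f, against 14.5, 19.1, 19.9 and 18.2 CPM in Erbb3d/d. All Erbb3d/d libraries lay below Erbb3f/f replicates 1, 2 and 3, and 2 of them lay below every Erbb3f/f library (log2 fold change -0.36, SE 0.18). Chac1 encodes an enzyme that breaks down glutathione. It had 4.48, 2.20, 7.70 and 3.28 CPM in Erbb3f/f, from 21 to 98 reads, and 3.05, 3.38, 8.51 and 7.19 CPM in Erbb3d/d, from 29 to 108 reads. The spread within each genotype was wider than the difference between them (log2 fold change 0.32, SE 0.45), and leaving out 1 library moved it from 0.04 without Erbb3d/d replicate 3 to 0.74 without Erbb3f/f replicate 3.

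Slc7a11, the exchanger subunit whose window with 2 cores is printed above, had 57.0, 77.1, 74.0 and 131 CPM in Erbb3f/f, against 123, 144, 259 and 302 CPM in Erbb3d/d. Erbb3d/d replicates 2, 3 and 4 exceeded every Erbb3f/f library, and replicate 1 lay just below Erbb3f/f replicate 4. At least 3 such libraries above were found for 10.4% of all tested genes. The mean was 84.7 ± 31.9 CPM in Erbb3f/f against 207 ± 87.1 CPM in the Erbb3d/d libraries (n = 4 each, SD), a log2 fold change of 1.29 (SE 0.34), or 2.45-fold. The gene lies on GRCm38 at chr3:49892526-50443614 (minus strand), and its 13 merged exons hold 13922 bp, the most of the 10 members.

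Epithelial markers were high in the same libraries as Slc7a11. Each member was set beside 7 marker sums, and the pairs given in the text are a selection. Over the 8 libraries, r of log2 values was 0.89 for Slc7a11 with the epithelial sum. It was -0.86 for Sesn2 with the immediate early and heat shock sum. The summed level of 14 epithelial markers was 1501, 1292, 1034 and 1653 CPM in Erbb3f/f, against 1585, 1629, 2534 and 2584 CPM in Erbb3d/d. Of these markers 12 had a higher mean in Erbb3d/d and none was at 0 in any library. Cldn3, the most abundant of the list, and Foxa2 had lower means (log2 fold changes -0.22 and -0.52). Erbb3d/d replicates 3 and 4, the 2 highest for Slc7a11, were the 2 highest for the markers, and Erbb3f/f replicate 4 was the highest of its genotype for both. The sum of 10 smooth muscle markers, of which 9 had a higher mean in Erbb3d/d and none was at 0, ran from 1825 to 3024 CPM in Erbb3f/f and from 2924 to 6102 CPM in Erbb3d/d. The smooth muscle marker with a lower mean was Synpo2 (log2 fold change -0.28). For each of the 2 sums the two-sided exact permutation test gave p = 0.0857 (adjusted p = 0.343 over 8 tests), where 0.0286 is the smallest this design allows. Of the single markers, 12 of 14 epithelial and 9 of 10 smooth muscle ones had an unadjusted p under 0.05 in edgeR's test. All of these were higher in Erbb3d/d, whereas 5 of 14 stromal markers were under 0.05, all lower. Over all tested genes the share was 11.6%, and edgeR called none of these markers after adjustment. Markers of 1 cell type vary together, so the counts are not independent. In bulk RNA, more cells of a type and more RNA per cell cannot be told apart, and the part of epithelial cells in the Slc7a11 difference was not tested.

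**Figure D2:**
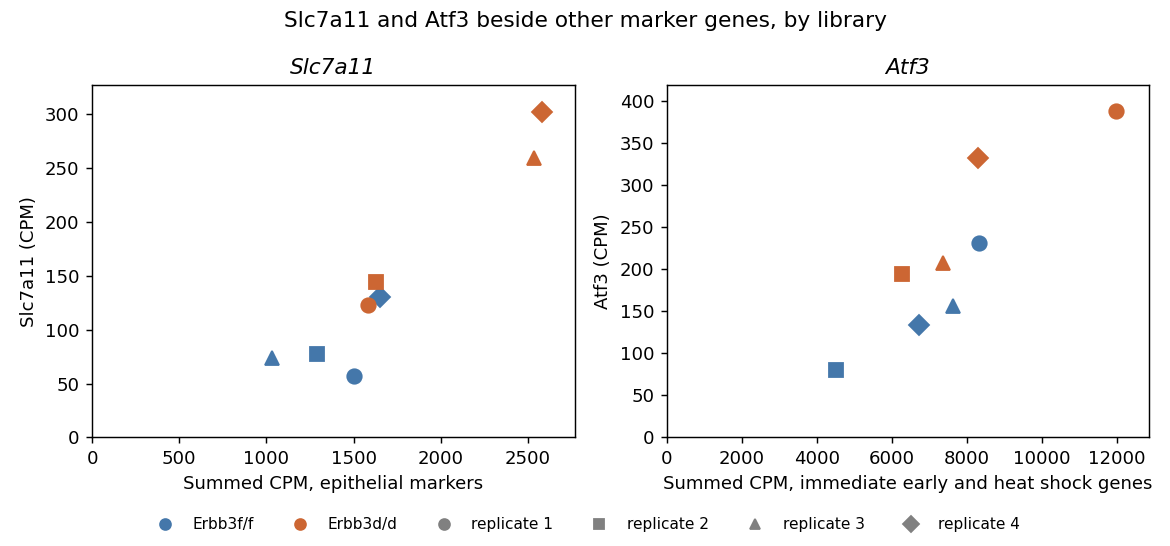
Left, Slc7a11 (CPM) against the summed CPM of 14 epithelial markers; right, Atf3 (CPM) against the summed CPM of 12 immediate early and heat shock genes. Each point is 1 library, coloured by genotype and shaped by replicate, on linear axes from 0. Erbb3d/d replicates 3 and 4 are at the upper right of the left panel (259 and 302 CPM), and Erbb3d/d replicate 1 is at the upper right of the right panel (388 CPM).

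Gdf15 encodes a secreted cytokine of the TGF-beta superfamily that is released by stressed cells and acts through the receptor GFRAL with RET. The gene lies on GRCm38 at chr8:70629393-70632456 (minus strand) with 3 merged exons of 1852 bp. It had 12.9, 3.25, 10.8 and 16.1 CPM in Erbb3f/f replicates 1 to 4, from 31 to 142 reads, and 46.7, 15.3, 49.96 and 45.8 CPM in Erbb3d/d replicates 1 to 4, from 131 to 634 reads. Erbb3d/d replicates 1, 3 and 4 were close together and far above Erbb3f/f, whereas Erbb3d/d replicate 2 fell inside the Erbb3f/f range. The mean was 10.7 ± 5.44 CPM in Erbb3f/f against 39.4 ± 16.2 CPM in the Erbb3d/d libraries (n = 4 each, SD). The log2 fold change was 1.88 (SE 0.48), or 3.68-fold, and 2.15 (SE 0.40) without Erbb3d/d replicate 2. The immediate early and heat shock sum given beside Atf3 was lowest in replicate 2 of each genotype, as Gdf15 was. The epithelial sum given beside Slc7a11 was lowest within Erbb3d/d in replicates 1 and 2, where Gdf15 was 46.7 and 15.3 CPM. The part of either gene group in the Gdf15 difference was not tested. Of its receptor genes, Gfral had 0 reads in all 8 libraries. Ret had 2.73, 1.57, 1.02 and 0.791 CPM in Erbb3f/f, against 2.75, 3.85, 3.47 and 3.25 CPM in Erbb3d/d, from 7 to 44 reads. The Ret groups did not overlap, but the closest libraries had 28 reads each, and edgeR did not call it (log2 fold change 1.12, SE 0.41, adjusted p = 0.348).

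Whether the members move together was read across libraries. The mean log2(CPM + 0.5) of the 10 members was 5.16, 4.67, 4.99 and 5.11 in Erbb3f/f and 5.46, 5.08, 5.53 and 5.44 in Erbb3d/d. Erbb3d/d replicate 2 again lay with the Erbb3f/f libraries, and replicate 2 was the lowest of each genotype. The genotype means differed by 0.39, and Gdf15, Slc7a11 and Atf3 had the largest log2 fold changes among the members.

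**Figure D3:**
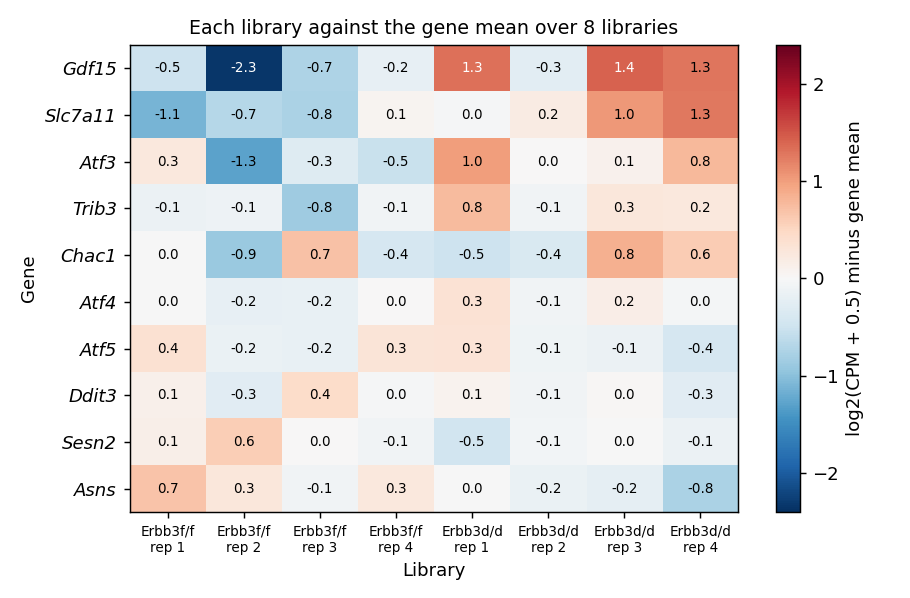
log2(CPM + 0.5) of each gene in each library, minus that gene's mean over the 8 libraries; red is above the mean and blue below. The upper rows (Gdf15, Slc7a11, Atf3) are mostly blue in Erbb3f/f and red in Erbb3d/d, and the bottom row (Asns) has the opposite colours.

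The genotype contrast chose the members, so the pairs of genes were compared on what that contrast did not use, the deviation of each library from its genotype mean. Of the 45 pairs, 25 had a Pearson r above 0 and 20 below, with a median of 0.16 and a range from -0.72 to 0.84. These values are descriptions over 8 libraries. All genes of a library share its depth and cell make-up, and depth and marker sums differed between the libraries. Atf4 went with Atf5 (r = 0.84, Spearman rho = 0.71) and with Trib3 (r = 0.74, rho = 0.74), and Atf5 went with Asns (r = 0.82, rho = 0.83). Gdf15 went with Atf3 (r = 0.71, rho = 0.43) and with Atf4 (r = 0.62, rho = 0.71). Slc7a11 had r above 0 with 3 of the 9 other members, Chac1 (r = 0.40), Gdf15 (r = 0.35, rho = 0.29) and Sesn2 (r = 0.07). Its r was -0.20 with Atf4 and -0.63 with Asns. Over the 8 libraries without regard to genotype, which the choice of members used, Gdf15 and Slc7a11 had r = 0.75. Sesn2 had r below 0 with 8 of the 9 other members, reaching -0.72 with Gdf15. The median r of a member with the 9 other members ran from -0.57 for Sesn2 to 0.50 for Atf4. Its median r with all tested genes ran from -0.04 to 0.03. A median of 9 values varies more than one over all tested genes, so these ranges are not compared.

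**Figure D4:**
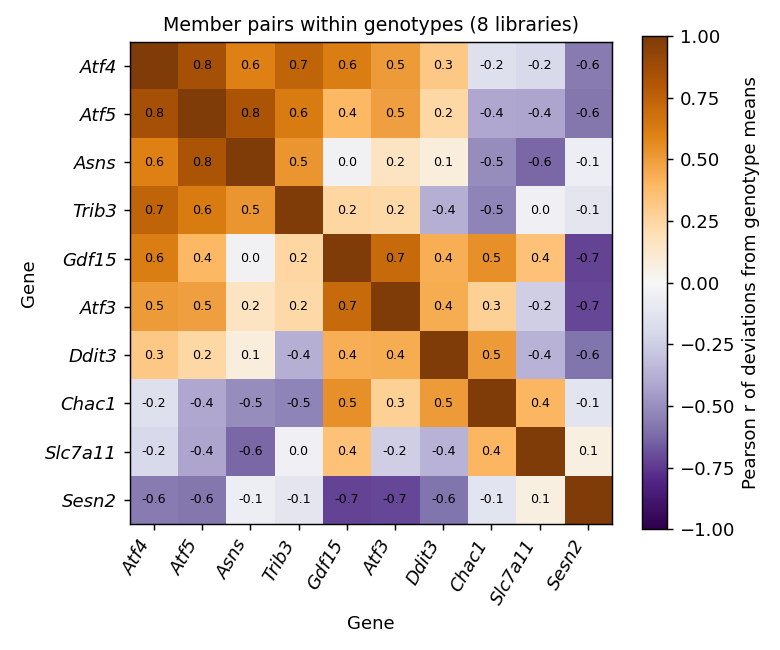
Pearson r between each pair of the 10 genes over 8 libraries, after each library's log2(CPM + 0.5) was taken relative to its genotype mean; orange is positive and purple negative. The genes were ordered so that Atf4, Atf5, Asns and Trib3, which have positive values with each other (0.53 to 0.84), stand together. Spearman rho of Asns was 0.38 both with Atf4 and with Trib3. Over the 8 libraries without regard to genotype, r of Asns was -0.06 with Atf4 and -0.24 with Trib3. The Sesn2 row is mostly negative.

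The genes most like Gdf15, Slc7a11 and Atf4 were sought among 14508 other tested genes with a mean of at least 1 CPM, by Pearson r of log2(CPM + 0.5) over the 8 libraries. Those nearest to Gdf15 were Ier3 (r = 0.98), Elof1 (r = 0.97) and Bhlhe40 (r = 0.97). Ier3, an immediate early gene that is also in the list summed above, had 51.2 ± 10.9 CPM in Erbb3f/f against 86.2 ± 18.5 CPM in the Erbb3d/d libraries (n = 4 each, SD). Those nearest to Slc7a11 were Marveld2, Fzd10 and Sgpp2 (r = 0.98 each). Marveld2 encodes a tight junction protein of epithelia, and had 18.4 ± 4.06 CPM in Erbb3f/f against 31.8 ± 9.30 CPM in the Erbb3d/d libraries (n = 4 each, SD). Those nearest to Atf4 were Eif1 (r = 0.98), Rtn2 (r = 0.96) and Ubxn8 (r = 0.96). Eif1 encodes a factor of start codon selection in translation, and had 201 ± 15.3 CPM in Erbb3f/f against 227 ± 26.1 CPM in the Erbb3d/d libraries (n = 4 each, SD). An r above 0.9 was found for 78 genes with Gdf15, 226 with Slc7a11 and 19 with Atf4. These r values include the genotype difference on which the members were chosen. Since only 3 genes per member are named out of 14508, whether the members share near genes was not tested.

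The rest of the pathway was read from lists of 104 genes outside the members, 102 of which could be tested. edgeR called 0 of them, with 13 at an unadjusted p under 0.05, of which 7 were higher and 6 lower in Erbb3d/d. These 13 are 12.7% of the list genes, near the 11.6% of all tested genes. DESeq2 called 3, Cdkn1a, Plk2 and Pmaip1, where it called 1.8% of all genes. Without Erbb3d/d replicate 2 edgeR called 5, these 3 with Nupr1 and Gpt2, where it called 1.75% of all genes. With any other single library left out it called 0 genes. The calls of this fit thus rest on 1 omission and support nothing, here and where they are given below. Upstream of ATF4, the eIF2alpha kinases and their regulators had a median log2 fold change of 0.00 over 11 genes, with none called and 0 at an unadjusted p under 0.05. The kinases Eif2ak1 (64.1 ± 5.01 and 56.3 ± 6.38 CPM), Eif2ak2 (76.4 ± 5.82 and 76.1 ± 11.5), Eif2ak3 (41.8 ± 6.62 and 46.5 ± 9.31) and Eif2ak4 (17.0 ± 3.96 and 14.2 ± 2.65) are given as Erbb3f/f and Erbb3d/d (SD, n = 4 each). Ppp1r15b, a subunit of the phosphatase that reverses the response, had 272 and 282 CPM, and the co-chaperone Dnajc3 had 197 and 214 CPM.

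The targets that handle amino acids lay on both sides of 0. Of 11 genes for amino acid and one-carbon synthesis, 10 had a lower and 1 a higher mean in Erbb3d/d, with a median log2 fold change of -0.25. edgeR called none of them with all 8 libraries, and called Gpt2 without Erbb3d/d replicate 2 (log2 fold change -0.73, SE 0.11, adjusted p = 0.0143). The 2 most abundant differed in direction: Psat1, of serine synthesis, had a log2 fold change of 0.38 (SE 0.19, adjusted p = 0.468 in edgeR's test) and Aldh18a1, of proline synthesis, one of -0.16 (SE 0.13, adjusted p = 0.676). Of 12 aminoacyl-tRNA synthetases, 8 had a lower mean, with a median of -0.12. Among them Wars had 133 ± 15.9 CPM in Erbb3f/f against 111 ± 5.80 CPM in the Erbb3d/d libraries, and Nars 122 and 124 CPM (SD, n = 4 each). Asns, which belongs to the same metabolism, had a log2 fold change of -0.59, below the median of either list.

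Of 8 amino acid transporters, 6 had a higher mean in Erbb3d/d (median log2 fold change 0.08) and none was called by edgeR or DESeq2. Slc38a2, the neutral amino acid transporter SNAT2, had 349, 398, 394 and 400 CPM in Erbb3f/f, against 461, 416, 438 and 464 CPM in Erbb3d/d, with no overlap but a small difference (log2 fold change 0.21, SE 0.09, adjusted p = 0.405 in edgeR's test). Slc3a2, the heavy chain that pairs with the Slc7a11 product, had 194 ± 27.3 CPM in Erbb3f/f against 245 ± 29.0 CPM in the Erbb3d/d libraries (n = 4 each, SD), a log2 fold change of 0.34 (SE 0.12, adjusted p = 0.337 in edgeR's test) beside 1.29 for Slc7a11.

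Among 10 other tested targets and partners of ATF4 or CHOP, 7 had a higher mean, with a median log2 fold change of 0.12 and none called by edgeR with all 8 libraries. Nupr1, a stress-induced chromatin protein singled out after its values were seen, had the largest log2 fold change of the list, 0.87 (SE 0.39, adjusted p = 0.435). Without Erbb3d/d replicate 2 edgeR called it (log2 fold change 1.16, SE 0.25, adjusted p = 0.0457). Cebpb, a C/EBP partner of ATF4, had 156 ± 55.8 CPM in Erbb3f/f against 248 ± 70.6 CPM in the Erbb3d/d libraries (SD, n = 4 each; log2 fold change 0.67, SE 0.30, adjusted p = 0.430 in edgeR's test), and Vldlr had 170 and 148 CPM. Fgf21, a hormone that ATF4 induces, was at or near 0 reads and was not tested. Of 12 NRF2 targets and genes of glutathione synthesis, 10 had a higher mean, but the median was 0.18 and the largest log2 fold change 0.44. Nfe2l2, which encodes NRF2, had 186 and 205 CPM, and its target Txnrd1 had 225 and 254 CPM.

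Chaperones of other stress responses were compared in the same fit. Of 19 ER chaperones and other genes of the unfolded protein response, 15 had a higher mean in Erbb3d/d, with a median log2 fold change of 0.14 and a largest value of 0.38. Hspa5, which encodes the ER chaperone BiP, had 1031 ± 141 CPM in Erbb3f/f against 1147 ± 260 CPM in the Erbb3d/d libraries (n = 4 each, SD), and Calr had 780 and 722 CPM. Of 5 mitochondrial chaperones and proteases, 4 had a lower mean (median -0.25). Hspd1 had 340 ± 60.4 and 270 ± 33.4 CPM (SD, n = 4 each; log2 fold change -0.33, SE 0.14, adjusted p = 0.396 in edgeR's test), and Hspa9 had 223 and 213 CPM. None of these genes was called by edgeR or DESeq2.

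Gdf15 and Sesn2 are also targets of p53, the regulator of the DNA damage response, and 13 other p53 targets were read out. Their median log2 fold change was 0.10, with 9 higher and 4 lower means. None was called by edgeR with all 8 libraries and no replicate block. The groups did not overlap for 2 of the 13, both higher in Erbb3d/d. Over all lists outside the members this held for 4 of 102 tested genes, with 0 lower. Beside that, 2.56% of all tested genes did not overlap with higher values in Erbb3d/d and 2.48% with lower values. Plk2, a stress-induced kinase, had 49.3, 38.5, 35.3 and 38.4 CPM in Erbb3f/f, against 84.7, 54.7, 66.3 and 63.2 CPM in Erbb3d/d (log2 fold change 0.74, SE 0.15). Pmaip1, which encodes the pro-apoptotic protein NOXA and is also an ATF4 target, had 52.7, 31.5, 37.9 and 49.6 CPM in Erbb3f/f, against 71.8, 62.4, 78.9 and 83.0 CPM in Erbb3d/d (log2 fold change 0.79, SE 0.16). In edgeR's test the adjusted p was 0.183 for each, and both were called by DESeq2. Without Erbb3d/d replicate 2 edgeR called both, with an adjusted p of 0.0306 for Plk2 and 0.0367 for Pmaip1.

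Cdkn1a, which encodes the cell cycle inhibitor p21 and was singled out after its values were seen, had 44.9, 30.7, 57.7 and 52.3 CPM in Erbb3f/f, against 115, 49.5, 104 and 116 CPM in Erbb3d/d. As for Gdf15, Erbb3d/d replicate 2 lay inside the Erbb3f/f range and the other 3 far above it (log2 fold change 1.05, SE 0.28, adjusted p = 0.281 in edgeR's test). DESeq2 called it with all 8 libraries, as did edgeR with the replicate number as a block. Those fits called 262 and 52 genes in all. Without Erbb3d/d replicate 2 edgeR called Cdkn1a (log2 fold change 1.27, SE 0.18, adjusted p = 0.0143). That fit drops the Erbb3d/d library nearest to Erbb3f/f for this gene, so its smaller p supports nothing. The most abundant p53 targets, Btg2 (440 and 622 CPM) and Trp53inp1 (182 and 248 CPM), had log2 fold changes of 0.50 (SE 0.27) and 0.45 (SE 0.26) and were not called.

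**Figure D5:**
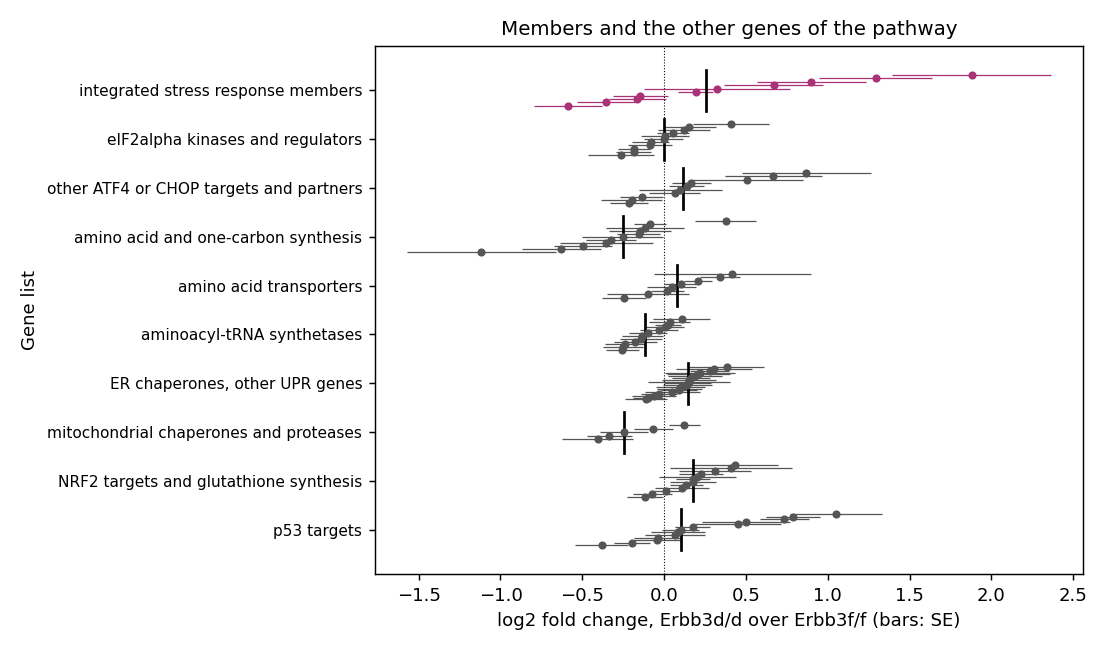
log2 fold change (Erbb3d/d over Erbb3f/f) with its SE for each tested gene, by list, without the GDF15 receptor genes. Each point is a gene and the vertical black bar is the list's median. The 10 members, in colour, spread from -0.59 to 1.88, while the eIF2alpha kinases and regulators centre on 0 and the enzymes of amino acid and one-carbon synthesis lie mostly below it.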

How the data were processed

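The authors deposited 1 table of raw read counts per library, with 23420 gene symbols and 5 lines that name no gene, which were left out (70.9% to 73.0% of entries). HISAT2, SAMtools, HTSeq and StringTie and the builds mm10 and GRCm38 are named per the submitters' processing notes, without versions; the annotation and counting options are not given in the sources used here. Libraries were polyadenylated, non-directional and read as 150 bp pairs per the labels' protocols. Counts were filtered by filterByExpr, scaled by TMM and fitted over all 14598 genes with edgeR 4.0.16 in R 4.3.3 (glmQLFit, robust, with genotype), with Benjamini-Hochberg adjustment at 0.05. The SE of a log2 fold change is its size over the root of the quasi-likelihood F. The fit was tested on simulated data. Single values were compared by two-sided exact permutation over the 70 assignments of 8 libraries, for 7 marker sums and the depth. Log values use CPM + 0.5. Exon lengths come from GENCODE vM21 and promoters from RefSeq, both GRCm38. Alternatives were DESeq2 1.42.0, upper quartile scaling, no filter, the replicate number as a block, a pseudocount of 2 CPM, Spearman rho and each library left out.

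The members and lists were chosen with earlier results of these data known. Named genes are the 10 members, the genes of each pathway list with an adjusted p under 0.05 or with no overlap and a mean of at least 1 CPM, the 2 most abundant genes of each list, and the 3 genes most like Gdf15, Slc7a11 and Atf4; the eIF2alpha kinases, Gfral, Fgf21, Cdkn1a, Nupr1, Gpt2 and the genes of the closing section are named outside this rule or as part of a count. Replicates with the same number were checked for shared deviations and were not treated as pairs. Genes with few reads, such as Trib3, Chac1 and Ret, carry more counting error than the others.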

Additional observations from a re-analysis of the deposited data

Results flagged for a closer look

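Among 38 sets of 4 values examined for 1 library far from the others, 2 had one, and chance gives about 1 in 20. Gdf15 in Erbb3d/d replicate 2 was 15.3 CPM, where the nearest library of that genotype had 45.8 CPM, a gap of 0.880 of the whole range, above Dixon's critical ratio for 4 values. Trib3 in Erbb3f/f replicate 3 was 2.20 CPM, from 28 reads, where the nearest library had 3.90 CPM, a gap of 0.907 of the range.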

How the results depend on the processing

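The log2 fold change of each of the 10 members kept its direction under all 12 alternatives and moved by less than its spread within genotypes, from 1.59 to 2.15 for Gdf15, 1.06 to 1.58 for Slc7a11, 0.70 to 1.19 for Atf3 and -0.70 to -0.43 for Asns. The difference in the members' mean ran from 0.30 to 0.50 over 13 alternatives, and 23 to 28 of the 45 pairs had r above 0 over 9. How many genes were called varied by tool and with 1 library. DESeq2 called 262 genes, 2 members and 3 genes of the pathway lists. With the replicate number as a block, edgeR called 52 of 14598 genes, 2 members (Gdf15 and Slc7a11, as in DESeq2) and 3 list genes. The list genes were Cdkn1a, Plk2 and Pmaip1, also as in DESeq2. In that fit the SE was 0.16 for Gdf15, 0.14 for Slc7a11 and 0.31 for Trib3, against 0.48, 0.34 and 0.30 without the block. Same-numbered libraries had correlated deviations of 0.241, 0.172, 0.0999 and 0.152, and Erbb3f/f replicate 4 and Erbb3d/d replicates 2 and 3 correlated best with another number, so the numbers are a hint and not a pairing. Leaving out Erbb3d/d replicate 2 gave 259 genes, 1 member and 5 list genes, and leaving out any other single library gave 0 of each. The median log2 fold change of eIF2alpha kinases and regulators then ran from -0.0527 to 0.0587, and that of Ret, the tested GDF15 receptor gene, from 0.913 to 1.56. The cause was not tested. Of the 120 list medians under the alternatives, 115 moved by less than the spread between libraries. Ret was read from 7 to 44 reads per library, where counting error is large.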

Other observations

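Of the enzymes of amino acid synthesis, 3 had an unadjusted p under 0.05 in edgeR's test, all lower in Erbb3d/d, and are named after their values were seen. Gpt2, alanine aminotransferase of mitochondria, had 87.9 ± 5.72 CPM in Erbb3f/f against 62.3 ± 19.1 CPM in the Erbb3d/d libraries. Mthfd2, of mitochondrial folate metabolism, had 32.3 ± 11.1 and 20.8 ± 3.84 CPM, and Cth, which makes cysteine from cystathionine, had 5.01 ± 2.48 and 2.29 ± 1.05 CPM (SD, n = 4 each). Their log2 fold changes were -0.50, -0.63 and -1.12, and their adjusted p-values over all genes in edgeR's test were 0.337, 0.369 and 0.388 with all 8 libraries. Without Erbb3d/d replicate 2 edgeR called Gpt2 (log2 fold change -0.73, adjusted p = 0.0143).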
